A study of Mus musculus with 18 samples.

Results

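Branched-chain amino acid catabolism was described through 10 genes, Bcat2, Bckdha, Bckdhb, Dbt, Bckdk, Ppm1k, Ivd, Mccc1, Mccc2 and Hibadh, chosen by name among 55450 genes of the count table. All 10 were measured in every library, and all 10 were among the 16270 genes with enough counts to be tested. A further 25 genes of the same pathway were followed by count, and all 25 were tested. The 10 and the 25 genes were chosen with earlier results of these data known. Gene expression was measured by RNA sequencing in left ventricle of FVB/N mice aged 20 weeks. They were either wild type (WT) or carried a cardiac-specific transgene for Gαq, a G protein alpha subunit whose gene is Gnaq. WT animals were littermates, and mice of both genotypes were fed from the age of 4 weeks and for 16 weeks either a control diet (CD) or chow holding 0.5 mg/g of ertugliflozin (ERTU), an inhibitor of the kidney glucose transporter SGLT2. The 18 libraries were 4 of WT on CD, 5 of Gαq on CD, 5 of WT on ERTU and 4 of Gαq on ERTU, each from the left ventricle of 1 heart. The transgene is cardiac-specific, while each library holds RNA of all cell types of the tissue.

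Leucine, isoleucine and valine are the branched-chain amino acids. In the mitochondrion the transaminase encoded by Bcat2 removes their amino group, and the branched-chain ketoacid dehydrogenase (BCKDH) complex then decarboxylates the ketoacids in the committed, irreversible step. The complex is held inactive when its E1 alpha subunit is phosphorylated by the kinase Bckdk, and is activated when the phosphatase Ppm1k removes the phosphate. Beyond it the routes part, leucine towards acetyl-CoA and acetoacetate, valine towards propionyl-CoA, and isoleucine towards both. The pathway is known to be active in heart muscle and to be lowered in failing hearts.

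Libraries held 15383566 to 20908363 counted read pairs. Levels are given as CPM, each count relative to its library's total after TMM scaling, and libraries are named by group and the number in the table's header. The transgene was seen in every Gαq library: Gnaq was between 45.5 and 229.7 CPM in WT and between 1641 and 11672 CPM in Gαq. Its median was 8045 CPM in Gαq CD (1641 to 11672) and 2711 CPM in Gαq ERTU (2236 to 5207). By diet over both genotypes Gnaq was not called in edgeR's quasi-likelihood test (log2 fold change -0.65, adjusted p = 0.666). That estimate takes in the WT libraries, which carry no transgene, and does not show that the Gαq groups were matched in Gnaq. The part of the Gnaq level in differences between the Gαq groups was not tested. Myh6, which encodes the main contractile myosin of the adult mouse ventricle, was at 25032 CPM or more in all libraries. Among 10 cardiomyocyte markers 0 rose and 4 fell in Gαq (median log2 fold change -0.09), and among 8 fibroblast markers 6 rose and 0 fell (median 0.66). Calls in the other marker lists were 2 lower of 7 for endothelium, 1 lower of 6 for smooth muscle and pericyte, 0 of 7 for macrophage, 1 higher of 3 tested for lymphocyte, 0 of 4 tested for red blood cell, 0 of 5 tested for fat, 0 of 5 tested for atrium, and 2 higher and 1 lower of 4 tested for skeletal muscle. The atrial light chain Myl7 was above 50 CPM in 4 libraries, WT CD 5, Gαq CD 8, WT ERTU 14 and Gαq ERTU 20, at 78.2, 138, 78.5 and 92.5 CPM in that order.

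Starts of transcription for 9 of the 10 genes were found in RefSeq (build GRCm38.p6), which gave 11 windows of the 250 bases before a start, 2 each for Bcat2 and Bckdhb. The exception was Dbt. Shown are the windows of 2 pairs of genes whose products act together and whose estimated differences between genotypes were of unequal size, the kinase and phosphatase of BCKDH and the subunits of methylcrotonyl-CoA carboxylase. Capitals mark the searched letters on either strand, CCAAT (read as ATTGG on the other strand) and CCACCC, a core of KLF-type boxes, with its reverse complement. Ppm1k at chr6:57535488-57535737 (minus strand), Bckdk at chr7:127903823-127904072 (plus strand), Mccc1 at chr3:36000679-36000928 (minus strand) and Mccc2 at chr13:100015640-100015889 (minus strand) read, 5′ to 3′:
Ppm1k: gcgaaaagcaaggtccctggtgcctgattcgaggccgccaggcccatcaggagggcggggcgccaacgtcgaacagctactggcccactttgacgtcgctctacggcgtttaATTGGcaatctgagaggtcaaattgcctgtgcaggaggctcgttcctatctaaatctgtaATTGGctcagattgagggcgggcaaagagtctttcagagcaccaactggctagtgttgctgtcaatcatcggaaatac
Bckdk: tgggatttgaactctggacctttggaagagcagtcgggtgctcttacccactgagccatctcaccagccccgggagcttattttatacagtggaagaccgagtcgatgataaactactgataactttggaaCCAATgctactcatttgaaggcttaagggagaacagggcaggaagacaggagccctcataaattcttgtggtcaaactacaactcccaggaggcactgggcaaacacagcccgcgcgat
Mccc1: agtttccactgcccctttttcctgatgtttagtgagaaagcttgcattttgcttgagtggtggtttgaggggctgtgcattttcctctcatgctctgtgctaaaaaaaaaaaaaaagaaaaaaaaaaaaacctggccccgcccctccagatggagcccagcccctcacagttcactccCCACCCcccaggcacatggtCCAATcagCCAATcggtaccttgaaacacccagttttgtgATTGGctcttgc
Mccc2: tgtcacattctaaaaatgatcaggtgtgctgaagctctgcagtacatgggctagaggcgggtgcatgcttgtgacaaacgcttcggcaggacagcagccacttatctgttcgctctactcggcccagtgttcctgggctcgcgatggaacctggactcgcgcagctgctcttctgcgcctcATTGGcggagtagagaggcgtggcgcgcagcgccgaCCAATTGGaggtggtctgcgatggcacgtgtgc
CCAAT was present in 7 of the 11 windows, against 33.8% of 32851 mouse windows of the same length. CCACCC was present in 3 of 11, against 28.1%. AAGGTCA, the core site bound by oestrogen-related receptors, was in 0 of 11 (4.08% of all windows), and CCGGAAG, an ETS-type site, was in 0 of 11 (6.91%). In the Mccc2 window 2 of the 3 CCAAT matches overlap on opposite strands. These letters describe the windows and say nothing of which factor was bound.

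The comparison of Gαq with WT asks how these genes stood in the ventricle that overexpresses Gαq. The 10 genes were chosen with earlier results of these data known. Shares of all genes, here and below, are therefore given for description and do not test the list. All 10 genes were lower in Gαq over both diets, and all 10 passed the threshold of edgeR's quasi-likelihood test (adjusted p under 0.05), where 9.92% of all genes tested were called lower. Their median log2 fold change was -0.48, against 0.00 over all genes. At the ends of the range, the kinase Bckdk decreased by 15.1% and the phosphatase Ppm1k decreased by 48.8%. On CD alone 7 of 10 were called lower (4.1% of all genes), with a median of -0.46, and on ERTU alone 6 of 10 were called lower (4.24%), with a median of -0.47. In bulk tissue fewer cardiomyocytes and less RNA per cardiomyocyte cannot be told apart.

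**Figure D1:**
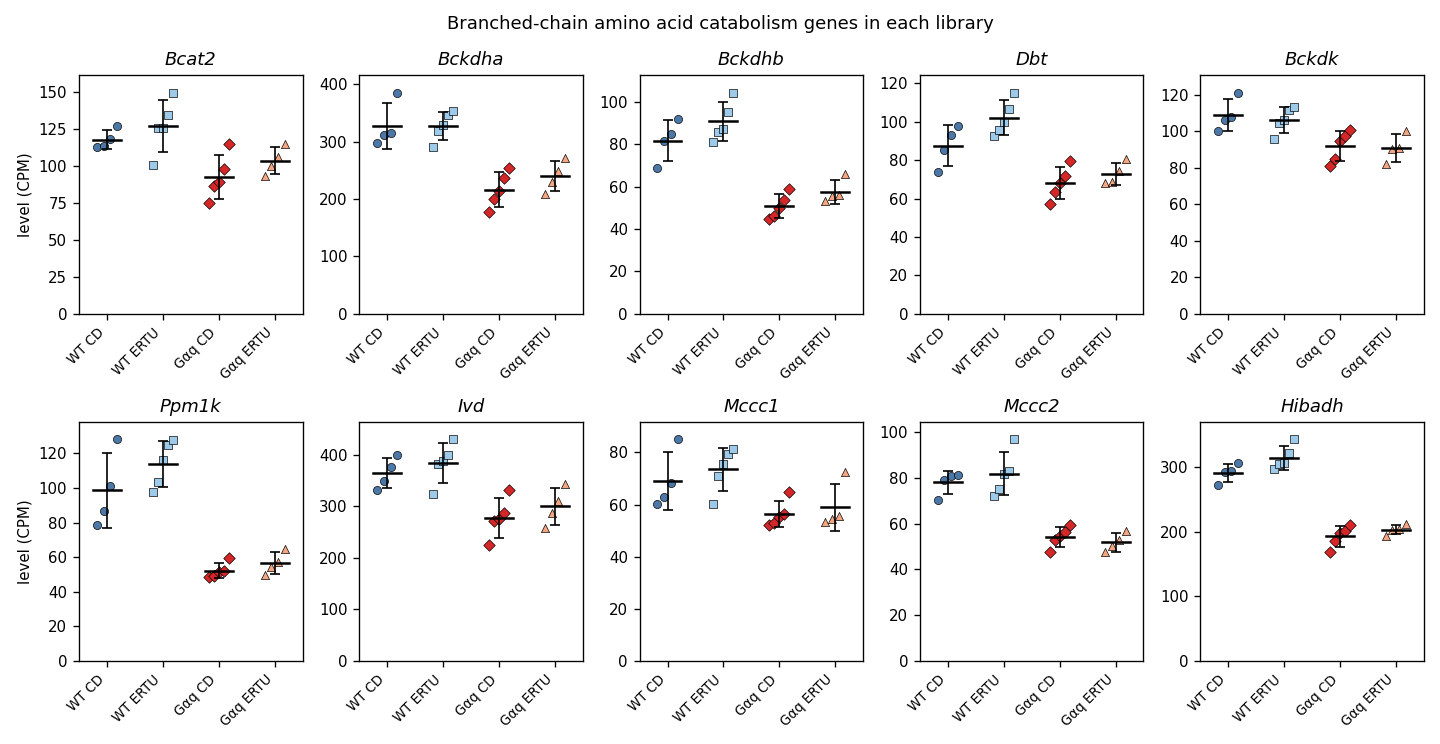
Level in CPM (linear axis from 0) of each of the 10 genes in each library by group, with 1 point per library, a horizontal bar at the group mean and error bars of 1 SD (n = 4, 5, 5 and 4 in that order along the axis). All 9 Gαq libraries lie below all 9 WT libraries for Bckdha, Bckdhb, Ppm1k, Mccc2 and Hibadh, and the groups overlap for the other 5 genes.

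The groups did not overlap for 6 genes on CD, Bckdha, Bckdhb, Ppm1k, Ivd, Mccc2 and Hibadh, where 4.6% of all genes had no overlap in this direction. On ERTU they did not overlap for 6 genes, Bckdha, Bckdhb, Dbt, Ppm1k, Mccc2 and Hibadh (5.49% of all genes). Over both diets 5 genes separated all 9 Gαq from all 9 WT libraries, against 1.83% of all genes.

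Bcat2 (chr7:45570153-45589711, GRCm38), the mitochondrial transaminase of the first step, was at 127, 118, 113 and 113 CPM in WT CD 1, 2, 4 and 5. It was at 115, 75.1, 86.2, 97.6 and 89.3 CPM in Gαq CD 6 to 10. Gαq CD 6 lay inside the WT range and the other 4 lay below it. On ERTU it was at 149.6, 134, 126, 101 and 126 CPM in WT ERTU 11 to 15 and at 115, 106, 93.3 and 100.002 CPM in Gαq ERTU 16, 17, 18 and 20, with overlap. Bcat2 fell over both diets by 0.32 on the log2 scale (SE 0.081, adjusted p = 0.00712). Its adjusted p was 0.078 on CD and 0.137 on ERTU, where it was not called, at log2 differences of -0.35 and -0.30. On CD it was called without Gαq CD 6 (adjusted p = 0.0199), and on ERTU without WT ERTU 14 (adjusted p = 0.0418). With all libraries kept, limma voom called Bcat2 on CD (adjusted p = 0.0405) and on ERTU (adjusted p = 0.0157). No other alternative on all libraries called it on either diet.

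The E1 enzyme of BCKDH is built of alpha subunits from Bckdha (chr7:25629946-25658981) and beta subunits from Bckdhb (chr9:83925145-84124240). Bckdha was at 297, 386, 311 and 315 CPM in the WT CD libraries and at 255, 177, 200.2, 215 and 236 CPM in the Gαq CD libraries. Every Gαq library was below every WT library. In the ERTU groups Bckdha was at 318, 347, 354, 291 and 329 CPM in WT and at 271, 249, 230.4 and 209 CPM in Gαq, again without overlap. Bckdha fell by 0.60 on the log2 scale on CD (SE 0.112, adjusted p = 0.00192) and by 0.45 on ERTU (SE 0.113, adjusted p = 0.0155). The call on ERTU was lost without Gαq ERTU 18 (adjusted p = 0.0555) or Gαq ERTU 20 (adjusted p = 0.0679).

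Bckdhb was at 84.7, 91.7, 81.5 and 68.6 CPM in WT CD and at 58.7, 44.8, 49.9, 46.3 and 53.9 CPM in Gαq CD. Under ERTU its level was 104, 87.0, 95.1, 81.2 and 85.8 CPM in WT and at 65.7, 53.1, 56.3 and 55.3 CPM in Gαq. The highest Gαq library stood below the lowest WT library on both diets. Bckdhb fell by 0.69 on CD (SE 0.105, adjusted p = 0.00027) and by 0.65 on ERTU (SE 0.107, adjusted p = 0.000593), both on the log2 scale. The ratio of Bckdha to Bckdhb CPM within a library ran from 3.05 to 4.59 in WT and from 3.77 to 4.69 in Gαq, so that the subunit ratios overlapped.

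Dbt (chr3:116513070-116549981) encodes the E2 core of the complex, the transacylase that carries the acyl group. It was at 93.3, 98.0, 85.4 and 73.6 CPM in WT CD and at 79.3, 63.5, 71.5, 68.0 and 57.1 CPM in Gαq CD. Gαq CD 6 was above WT CD 5, the lowest WT library, and the other 4 were below all WT libraries. On ERTU it was at 115, 99.9, 95.5, 92.7 and 107 CPM in WT and at 68.4, 80.6, 74.2 and 68.0 CPM in Gαq, without overlap. Dbt fell by 0.37 on the log2 scale on CD (SE 0.105, adjusted p = 0.0336) and by 0.49 on ERTU (SE 0.106, adjusted p = 0.00565). The call on CD was lost when any of WT CD 1 or 2 or Gαq CD 7, 9 or 10 was left out (highest adjusted p = 0.128). It was also lost with no filter on low counts (adjusted p = 0.0645) and with only the 2 CD groups in the model (adjusted p = 0.0796), while over both diets Dbt was called (adjusted p = 0.000243).

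The kinase and phosphatase that set the activity of the complex differed in how far they stood below WT. Bckdk (chr7:127904082-127910221) was at 106, 121, 108 and 100.1 CPM in WT CD and at 97.6, 81.2, 84.8, 94.8 and 100.5 CPM in Gαq CD. Libraries of ERTU-fed mice held 111, 106, 113, 95.6 and 104 CPM in WT and at 100.2, 90.9, 90.3 and 82.0 CPM in Gαq. The ranges of the genotypes overlapped on both diets. Bckdk fell over both diets by 0.24 on the log2 scale (SE 0.061, adjusted p = 0.00802), the smallest difference among the 10 genes, and was not called on CD (-0.25, adjusted p = 0.0947) or on ERTU (-0.23, adjusted p = 0.132).

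Ppm1k (chr6:57506502-57535468), the phosphatase, had the largest difference among the 10 genes on both diets. It was at 101, 128, 86.5 and 78.7 CPM in WT CD and at 59.7, 48.9, 48.7, 51.6 and 51.6 CPM in Gαq CD. With ERTU its level was 125, 128, 116, 97.6 and 104 CPM in WT and at 49.8, 64.8, 57.3 and 54.1 CPM in Gαq. The lowest WT library of all, at 78.7 CPM, was above the highest Gαq library, at 64.8 CPM. Ppm1k fell by 0.92 on the log2 scale on CD (SE 0.126, adjusted p = 9.74e-05) and by 1.01 on ERTU (SE 0.129, adjusted p = 5.67e-05). In linear terms it decreased by 47.2% on CD and decreased by 50.4% on ERTU.

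The ratio of Bckdk to Ppm1k CPM within a library does not depend on how libraries are scaled. It was 1.05, 0.946, 1.25 and 1.27 in WT CD and 1.63, 1.66, 1.74, 1.84 and 1.95 in Gαq CD. On ERTU it was 0.894, 0.830, 0.977, 0.980 and 1.01 in WT and 2.01, 1.402, 1.58 and 1.51 in Gαq. The highest WT ratio, 1.27, was below the lowest Gαq ratio, 1.402, so that the genotypes were apart in all 18 libraries. The geometric mean ratio was 1.57 times as high in Gαq as in WT on CD and 1.72 times as high on ERTU. The ratio counts reads and not molecules, since the transcripts differ in length, and the pair was picked with these differences known, so no test is given. The part of cell makeup in the ratio was not tested.

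**Figure D2:**
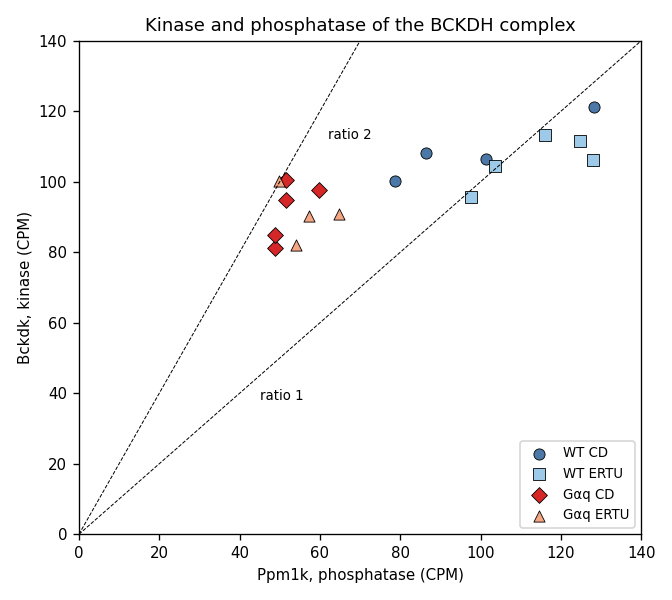
Bckdk against Ppm1k, both in CPM on linear axes, with 1 point per library coloured by group and dashed lines at ratios of 1 and 2. The 9 WT libraries lie at ratios of 0.830 to 1.27 and the 9 Gαq libraries at 1.402 to 2.01.

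Ivd (chr2:118861954-118882909) encodes isovaleryl-CoA dehydrogenase, the first enzyme of the leucine branch past the complex. It was at 332, 400.0, 376 and 349.9 CPM in WT CD and at 332, 224, 275, 286 and 271 CPM in Gαq CD, where Gαq CD 6 and WT CD 1 were all but level. In ERTU-fed mice Ivd was at 382, 399.7, 387, 323 and 429.9 CPM in WT and at 286, 344, 311 and 258 CPM in Gαq, with Gαq ERTU 17 above WT ERTU 14. Ivd fell by 0.39 on the log2 scale on CD (SE 0.113, adjusted p = 0.0365), and its difference of -0.36 on ERTU was not called (SE 0.114, adjusted p = 0.0576). The call on CD was lost without WT CD 1, 2 or 4 or without Gαq CD 7, 8, 9 or 10 (highest adjusted p = 0.123). It was also lost with no filter (adjusted p = 0.0653), with only the 2 CD groups in the model (adjusted p = 0.0636) and without the 4 libraries high in Myl7 (adjusted p = 0.0594). On ERTU it was called without WT ERTU 14 (adjusted p = 0.025) and without Gαq ERTU 17 (adjusted p = 0.0355). It was also called there without Gαq CD 6 (adjusted p = 0.0446) or Gαq CD 7 (adjusted p = 0.0416). These libraries are in neither group compared and enter through the shared filter, scaling, spread and adjustment.

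Mccc1 (chr3:35959312-36000678) and Mccc2 (chr13:99948530-100015639) encode the alpha and beta subunits of methylcrotonyl-CoA carboxylase, the biotin enzyme that follows Ivd. Mccc2 was at 79.2, 81.4, 81.0 and 70.3 CPM in WT CD and at 59.3, 52.6, 54.4, 56.3 and 47.6 CPM in Gαq CD. With ERTU the levels were 75.3, 83.0, 81.6, 72.2 and 96.8 CPM in WT and at 49.96, 56.8, 52.7 and 47.4 CPM in Gαq. No Gαq library reached the lowest WT library. Mccc2 fell by 0.53 on CD (SE 0.093, adjusted p = 0.00105) and by 0.66 on ERTU (SE 0.095, adjusted p = 0.000166), both on the log2 scale.

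Mccc1 was at 62.9, 85.1, 68.1 and 60.1 CPM in WT CD and at 64.8, 52.3, 55.1, 56.2 and 52.8 CPM in Gαq CD. The ERTU libraries stood at 75.6, 81.4, 71.1, 60.3 and 79.2 CPM in WT and at 53.4, 72.5, 55.8 and 54.3 CPM in Gαq. Gαq CD 6 and Gαq ERTU 17 lay inside the WT ranges and the other 7 Gαq libraries lay below them. Mccc1 fell over both diets by 0.31 on the log2 scale (SE 0.082, adjusted p = 0.0107) and was not called on CD (-0.30, adjusted p = 0.145) or on ERTU (-0.32, adjusted p = 0.117). On ERTU it was called without WT ERTU 14 (adjusted p = 0.0467) or Gαq ERTU 17 (adjusted p = 0.0328). On CD the ratio of Mccc1 to Mccc2 CPM ran from 0.794 to 1.05 in WT and from 0.994 to 1.11 in Gαq, and overlapped. On ERTU this ratio ran from 0.818 to 1.004 in WT and from 1.06 to 1.28 in Gαq, without overlap. It was not tested.

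Hibadh (chr6:52546228-52640389), the 3-hydroxyisobutyrate dehydrogenase of the valine branch, was at 307, 293, 294 and 273 CPM in WT CD. It was at 210.4, 186, 169, 201 and 198 CPM in Gαq CD. Under ERTU Hibadh was at 344, 322, 306, 297 and 305 CPM in WT and at 204, 211, 203 and 194 CPM in Gαq. The genotypes lay far apart relative to the spread within groups, whose SD was 7.29 to 18.4 CPM. Hibadh fell by 0.60 on CD (SE 0.079, adjusted p = 8.02e-05) and by 0.63 on ERTU (SE 0.081, adjusted p = 5.72e-05), both on the log2 scale. Its exons share 122 bases on the same strand with the snoRNA gene Gm24355, and the other 9 genes share none.

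**Figure D3:**
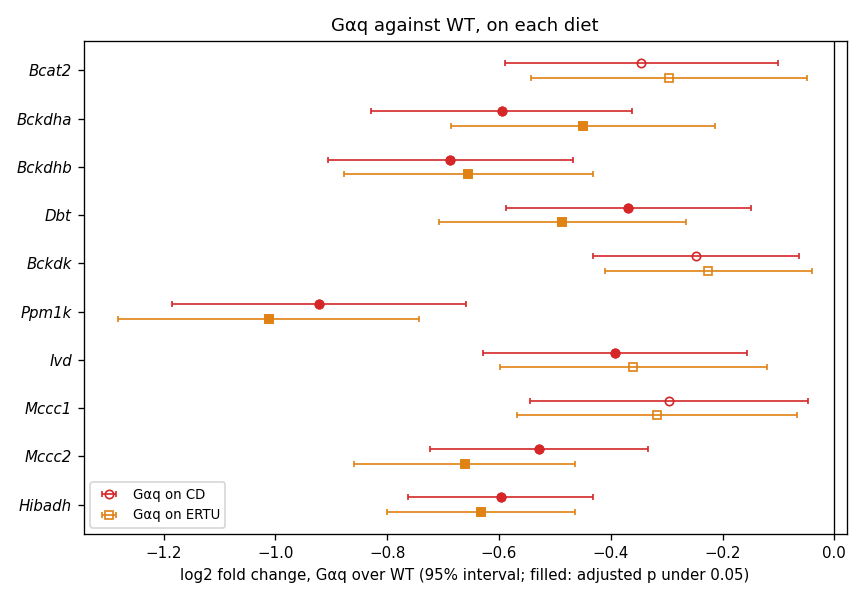
Log2 fold change of Gαq over WT on CD (circles) and on ERTU (squares) with 95% intervals for the 10 genes, filled where the adjusted p was under 0.05. All 20 values are below 0, from -0.23 for Bckdk to -1.01 for Ppm1k, both on ERTU.

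The estimates spanned a range across the genes. Over both diets the 95% intervals were -1.15 to -0.78 for Ppm1k and -0.36 to -0.11 for Bckdk, with the interval of Hibadh at -0.73 to -0.50 and that of Bckdhb at -0.82 to -0.52. Intervals of 5 genes overlapped that of Bckdk, namely Bcat2 (-0.49 to -0.15), Mccc1 (-0.48 to -0.14), Ivd (-0.54 to -0.21), Dbt (-0.58 to -0.27) and, at its edge, Bckdha (-0.69 to -0.36). When libraries were scaled to the geometric mean count of the 10 cardiomyocyte markers, an alternative chosen after seeing the data, the median of all genes moved to 0.18 and the median of the 10 genes to -0.30. On that scale 7 of 10 genes were called lower over both diets (3.46% of all genes), and Bcat2 (-0.15, adjusted p = 0.206), Bckdk (-0.06, adjusted p = 0.610) and Mccc1 (-0.13, adjusted p = 0.142) were not. Over all genes the split was then 563 lower and 2792 higher, against 1614 and 1582. On that scale 5 of the 10 were called lower on CD (1.49% of all genes) and 4 on ERTU (1.21%), Bckdhb, Ppm1k, Mccc2 and Hibadh in both. Without the 4 libraries with over 50 CPM of Myl7, also chosen after seeing the data, 10 genes were called lower over both diets (8.81% of all genes), 6 on CD (3.33%) and 6 on ERTU (3.96%). On CD 5 of 10 were called lower with no filter on low counts (1.86% of the genes tested) and 5 with only the 2 groups compared in the model (3.07%).

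Libraries that were high or low in 1 gene were often so in the others. WT CD 2 was the highest of its group in 8 of 10 genes and WT CD 5 the lowest in 8, WT ERTU 14 was the lowest in 10 of 10, and Gαq CD 6 was the highest in 9. The summed level of the 10 genes was 1502 to 1802 CPM in WT CD, 1511 to 1799 CPM in WT ERTU, 1005 to 1331 CPM in Gαq CD and 1122 to 1328 CPM in Gαq ERTU. In each group the library lowest in this sum was also lowest in summed cardiomyocyte markers. These were WT CD 5 at 88140 CPM, WT ERTU 14 at 85724 CPM, Gαq CD 7 at 83725 CPM and Gαq ERTU 20 at 83129.5 CPM. All of these but Gαq CD 7 are among the 4 libraries with over 50 CPM of Myl7. WT CD 2, Gαq CD 6 and Gαq ERTU 17 were highest of their groups in both sums, with markers at 122401, 107126 and 108996 CPM. Among WT ERTU libraries the sum of the 10 genes was highest in WT ERTU 11 and the marker sum in WT ERTU 12. Summed fibroblast markers were 1587 to 3076 CPM in WT CD, 1471 to 2754 CPM in WT ERTU, 2968 to 4280 CPM in Gαq CD and 2826 to 3481 CPM in Gαq ERTU. The part of cell makeup in the differences was not tested.

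Per length of exon, the order of levels in WT CD ran from the E1 alpha subunit to Mccc1. Bckdha was highest at 172 ± 20.96 RPKM (reads per kilobase of merged exons scaled as for CPM, SD, n = 4), followed by Ivd at 66.2 ± 5.39 RPKM and Bckdhb at 45.2 ± 5.38 RPKM, with no overlap between these neighbours on this scale. Bcat2 (30.2 ± 1.65 RPKM), Bckdk (29.5 ± 2.40), Hibadh (28.7 ± 1.37), Mccc2 (27.8 ± 1.85) and Dbt (26.2 ± 3.18) each overlapped the next and could not be ordered. Ppm1k at 16.4 ± 3.62 RPKM and Mccc1 at 6.30 ± 1.02 RPKM stood below them. Part of this order depends on the length used. Bcat2 spans 3900 bases of merged exons and 2081 in its longest transcript, and Hibadh 10179 and 6084. Per kilobase of the longest transcript Bcat2 was at 56.5 RPKM, Bckdhb at 55.3 RPKM and Hibadh at 48.0 RPKM, and both Bcat2 and Hibadh overlapped Bckdhb. On either length Bckdha and Ivd were the highest and Mccc1 the lowest, at 10.2 RPKM by the longest transcript, while Ppm1k then overlapped Dbt. The spread within groups was similar across groups, with median coefficients of variation over the 10 genes of 10.01% in WT CD, 10.1% in WT ERTU, 10.1% in Gαq CD and 9.29% in Gαq ERTU.

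The comparison of ERTU with CD asks whether the drug moved these genes in either genotype. Of the 10 genes, 0 were called in edgeR's test in WT (0% of all genes), 0 in Gαq (0.00615% of all genes) and 0 over both genotypes (0%). DESeq2 and both limma fits also called 0 of the 10 in all 3 comparisons. At an unadjusted p under 0.05 there were 2 of 10 over both genotypes, Bckdhb and Dbt, against 7.7% of all genes. In WT alone there were 0 of 10 (2.24% of all genes), and in Gαq alone 0 of 10 (7.62%). In 9 of 10 genes the estimate over both genotypes was above 0, as it was for 49.5% of all genes, with Bckdk as the exception. The median log2 difference was 0.09 over both genotypes, 0.10 in WT and 0.11 in Gαq, against 0.00, 0.01 and 0.00 over all genes.

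The libraries of the 2 diets overlapped for all 10 genes in both genotypes. Over all genes, groups did not overlap in 0.43% (lower with ERTU) and 0.326% (higher) in WT, and in 0.854% and 0.744% in Gαq. Over both genotypes the estimate for Bckdhb was 0.17 (95% interval 0.02 to 0.32, adjusted p = 0.639), and that for Dbt was 0.16 (0.01 to 0.31, adjusted p = 0.64). For Ppm1k it was 0.16 (-0.02 to 0.34, adjusted p = 0.652). The phosphatase was at 98.7 ± 21.8 CPM in WT CD (n = 4) and 114 ± 13.1 CPM in WT ERTU (n = 5), and at 52.1 ± 4.48 CPM in Gαq CD (n = 5) and 56.5 ± 6.33 CPM in Gαq ERTU (n = 4). In Gαq the estimates ran from -0.06 for Mccc2 to 0.18 for Bckdhb, and the intervals reached no further than -0.26 and 0.41. In WT they ran from -0.04 for Bckdk to 0.22 for Dbt, and the intervals reached no further than -0.23 and 0.47. Changes of the size seen between genotypes for Ppm1k lay outside these intervals. Increases of the size of the genotype differences of Bckdk or Mccc1 lay within several of them, so increases that small were not excluded within 1 genotype.

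**Figure D4:**
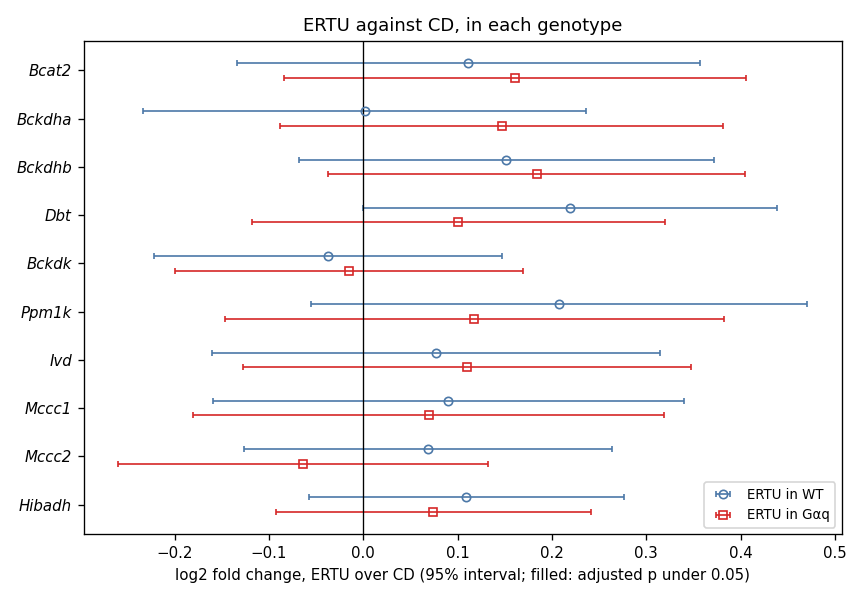
Log2 fold change of ERTU over CD in WT (circles) and in Gαq (squares) with 95% intervals for the 10 genes, all open because none had an adjusted p under 0.05. Estimates lie between -0.06 and 0.22, and every interval takes in 0.

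The interaction of genotype with diet, which tests the difference of the ERTU effects, called 0 of the 10 genes (0% of all genes), with 0 of 10 at an unadjusted p under 0.05 (1.92% of all genes) and 0 by DESeq2 and by both limma fits. Its estimates ran from -0.13 for Mccc2 to 0.15 for Bckdha on the log2 scale, 5 above 0 and 5 below. Its intervals were wide, for Ppm1k from -0.46 to 0.28. The differences between genotypes on CD and on ERTU, set side by side above, were thus not shown to differ.

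The 25 other genes of the pathway were also chosen with earlier results known, so shares of all genes do not test this list. Among them 17 fell and 3 rose in Gαq over both diets, where 19.6% of all genes were called in either direction. The median log2 fold change of the 25 was -0.34. On CD 13 fell and 1 rose (8.1% of all genes were called), and on ERTU 13 fell and 1 rose (8.17%). Abat was the gene that rose on both diets. The count of 14 on CD was 5 without WT CD 2, 7 without Gαq CD 7, 8 without WT CD 1 and 9 without Gαq CD 9. The count of 14 on ERTU was 8 without Gαq ERTU 20 and 9 without Gαq ERTU 18 or without WT ERTU 12. Scaled to cardiomyocyte markers, 10 of the 25 were called over both diets, 7 lower and 3 higher, where 20.6% of all genes were called and most of them higher.

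Of 5 transporter genes 1 was called over both diets, a share close to the 19.6% of all genes. Slc7a5, the light chain of the LAT1 exchanger at the cell surface, rose over both diets by 0.39 on the log2 scale (SE 0.122, adjusted p = 0.0293). Its partner Slc3a2 was at 0.17 (adjusted p = 0.191), and Slc43a1 was at 0.44 (adjusted p = 0.142) at levels of 1.78 to 5.93 CPM. Slc25a44, the carrier that brings branched-chain amino acids into mitochondria, was at -0.06 (adjusted p = 0.611), and Slc43a2 was at -0.0017 (adjusted p = 0.996). None of the last 4 was called, and the estimates of Slc25a44 and Slc43a2 turned to 0.11 and 0.15 on the cardiomyocyte scale. In Gαq, Slc3a2 was at 40.9 to 45.9 CPM on CD and at 46.2 to 60.9 CPM on ERTU, without overlap, as for 0.744% of all genes. Its difference of 0.33 was not called (SE 0.121, adjusted p = 0.653).

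Bcat1, the cytosolic transaminase, and Bcat2, the mitochondrial one, went opposite ways. Bcat1 rose by 0.70 on the log2 scale (SE 0.179, adjusted p = 0.00782), at 1.06 to 2.57 CPM in WT and 2.15 to 4.16 CPM in Gαq, while Bcat2 was at 75.1 CPM or more in every library. Dld, the E3 subunit that BCKDH shares with the pyruvate and oxoglutarate dehydrogenases, fell by 0.66 (SE 0.070, adjusted p = 9.4e-07), so that all 4 genes of catalytic BCKDH subunits (E1, E2 and E3) fell. Klf15, a transcription factor known to drive branched-chain amino acid catabolism in heart, fell by 0.58 (SE 0.167, adjusted p = 0.0162).

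In the isoleucine and valine branches Ehhadh, a peroxisomal bifunctional enzyme also used in fatty acid oxidation, decreased by 59.0% (adjusted p = 1.29e-05), the largest decrease of the 25. Aldh6a1, the methylmalonate semialdehyde dehydrogenase that follows Hibadh, decreased by 40.1% (adjusted p = 2e-07). Hibch, the hydrolase just before Hibadh, decreased by 27.9% (adjusted p = 9.83e-05), and Echs1, the enoyl-CoA hydratase, decreased by 26.3% (adjusted p = 7.87e-05). Hadha and Hadhb, the subunits of the mitochondrial trifunctional protein of fatty acid oxidation, were listed with these branches. They decreased by 34.1% and decreased by 27.1%, and the thiolase Acat1 decreased by 23.7%. The acyl-CoA dehydrogenases Acadsb and Acad8 fell by 0.23 and fell by 0.23 on the log2 scale. Abat, the GABA transaminase that also takes semialdehydes of this route, rose by 73.2% (adjusted p = 9.34e-06), with all 9 Gαq libraries (44.3 to 75.8 CPM) above all 9 WT libraries (30.5 to 41.4 CPM), as for 1.73% of all genes. Hsd17b10 was at -0.14 (adjusted p = 0.178) and was not called.

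In the leucine branch Auh, the methylglutaconyl-CoA hydratase that follows methylcrotonyl-CoA carboxylase, decreased by 22.8% (adjusted p = 0.0006). Oxct1, which activates the acetoacetate formed, decreased by 19.4% (adjusted p = 0.0242). All 4 genes that take propionyl-CoA to succinyl-CoA fell: Pcca and Pccb, the subunits of propionyl-CoA carboxylase, decreased by 21.3% and decreased by 17.8%, Mcee decreased by 25.5% and Mut decreased by 24.5% (adjusted p at most 0.0057). Under ERTU 0 of the 25 genes were called in WT, in Gαq or over both genotypes, with 0, 1 and 4 at an unadjusted p under 0.05 (2.24%, 7.62% and 7.7% of all genes), and DESeq2 and both limma fits also called 0.

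**Figure D5:**
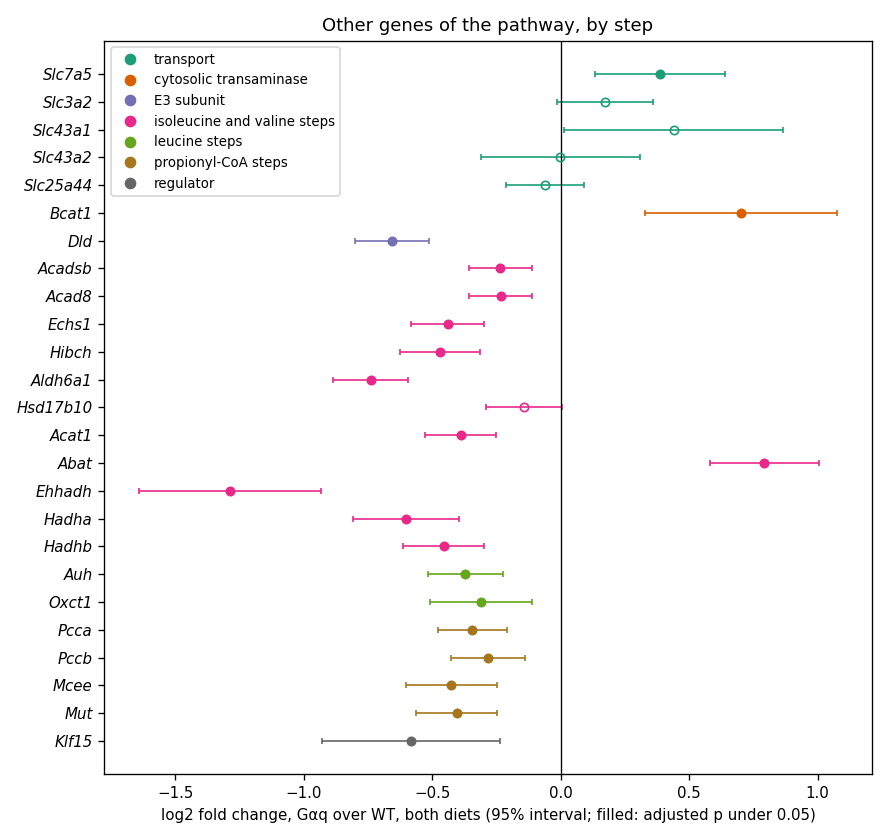
Log2 fold change of Gαq over WT over both diets with 95% intervals for the 25 other genes, coloured by step and filled where the adjusted p was under 0.05. The 17 filled points left of 0 are Dld, the regulator Klf15 and genes of the isoleucine and valine, leucine and propionyl-CoA steps. The 3 filled points to the right are Slc7a5, Bcat1 and Abat.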

How the data were processed

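Poly(A)-selected libraries from left ventricle were sequenced as paired ends. Per the labels and methods, the authors aligned reads to mm10 with STAR 2.6.0c and counted uniquely aligned, same-strand pairs over nuclear-encoded genes with featureCounts (Subread 1.6.2). The deposited count table holds these raw counts. The other deposited table gives the same genes on a log2-like scale after the authors' variance-stabilizing transformation (DESeq2), and served 1 alternative. Symbols and positions came from GENCODE M21 (GRCm38) and matched 55104 of 55450 gene IDs (99.4%).

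Tests were run on the counts with edgeR 4.0.16 (R 4.3.3): filterByExpr on 4 groups (16270 genes kept; the others held 0.0906% of counts), TMM scaling, quasi-likelihood F tests and Benjamini-Hochberg adjustment over all genes tested at 0.05. Genotype and diet came from a model with both factors, the other comparisons from 1 mean per group. Alternatives used DESeq2 1.42.0, limma 3.58.1 (voom with quality weights, and the transformed values), median-of-ratios scaling, no filter, only the groups compared, and 1 library left out. Steps were tested on simulated data.

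The 10 genes, the 25 other genes and the marker lists were chosen with earlier results of these data known. Named genes are all of these 10 and 25, checks of the labels and markers; 1 further gene of the pathway is not reported here. Columns were matched to groups by name and not to single labelled samples. Depth was 15383566 to 20908363 pairs per library. P-values set differences between groups against the spread between hearts.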

Additional observations from a re-analysis of the deposited data

Results flagged for a closer look

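A library was set apart where its gap to the nearest other library of its group was large for the group's whole range (Dixon's 95% limit). Of 144 sets of values, 1 per group for each pathway gene and for the ratio of Bckdk to Ppm1k, 10 were set apart in this way, where chance gives about 7.2. Of the 40 sets of the 10 genes, 2 were set apart, where chance gives 2. Ppm1k was at 59.7 CPM in Gαq CD 6, against 48.7 to 51.6 CPM in the other 4 libraries of that group. Mccc1 was at 72.5 CPM in Gαq ERTU 17, against 53.4 to 55.8 CPM in the other 3.

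Among the other genes of the pathway the library stood high in 6 cases. Slc43a1 was at 3.70 CPM in WT CD 5, Bcat1 at 4.16 CPM in Gαq CD 8, Acat1 at 979.5 CPM in WT ERTU 14, Hadhb at 410.1 CPM in WT CD 2, Auh at 131 CPM in Gαq ERTU 16, and Klf15 at 183 CPM in WT ERTU 11. It stood low in 2 cases, Hsd17b10 at 144 CPM in WT CD 5 and Ehhadh at 14.2 CPM in WT CD 4.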

How the results depend on the processing

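All 10 genes were called lower in Gαq over both diets under every alternative except scaling to cardiomyocyte markers (7 genes), and in each fit that left out 1 library. On CD it was 5 with no filter and 5 with only the groups compared, against 7. On CD the count without 1 library ran from 5 to 8 and on ERTU from 5 to 9, and limma voom called 10 on ERTU. For the 25 other genes the count was 10 over both diets, 5 on CD and 4 on ERTU with cardiomyocyte scaling, 9 on CD with no filter, 7 on CD with only the groups compared, and 7 on ERTU without the libraries high in Myl7. Without 1 library it ran from 18 to 21, 5 to 15 and 8 to 14. These counts take in both directions. With cardiomyocyte scaling 20.6% of all genes were called in either direction over both diets, against 19.6%. Called lower on that scale were 1.49% on CD and 1.21% on ERTU, against 4.1% and 4.24%. Also called lower were 1.86% on CD with no filter, 3.07% on CD with only the groups compared and 3.96% on ERTU without the Myl7 libraries. Over all genes limma voom called 2755 on ERTU, against 1330, and the count on CD without 1 library ran from 788 to 1414 (788 without WT CD 1 and 851 without WT CD 2) and on ERTU from 946 to 1696. DESeq2 called 2 genes for diet and 5 for ERTU in Gαq, where 1 was called, and the latter was 0 with no filter, with the groups compared alone, with cardiomyocyte scaling, without the libraries high in Myl7 and in each fit that left out 1 library. The causes were not tested.

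Estimates near 0 turned. Slc43a2 by genotype became 0.0055 with no filter, 0.0752 by voom, 0.15 with cardiomyocyte scaling and 0.0887 without the Myl7 libraries, and ran from -0.0644 to 0.0879 without 1 library. With cardiomyocyte scaling Slc25a44 became 0.11 and Hsd17b10 0.0374, and Bckdk became 0.018 by diet and 0.0435 for ERTU in Gαq, the latter 0.0077 without the Myl7 libraries. Mccc2 by diet became -0.014 by voom. Without 1 library Mccc2 by diet ran from -0.0331 to 0.0264, Bckdk by diet from -0.0501 to 7.7e-05, Bckdha for ERTU in WT from -0.0424 to 0.0900, Bckdk from -0.0755 to 0.0179 in WT and from -0.0654 to 0.0312 in Gαq, and Mccc1 for ERTU in Gαq from -0.0452 to 0.13.

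No paired analysis was possible because the numbers of the columns run across the series and share none between groups. Bcat1 and Slc43a1 rest on few counts.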
